A study of Mus musculus with 22 samples.

Results

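Liver and lung of mice that breathed only filtered air were compared here, to describe what each organ transcribed before any benzene reached it. The members are the 11 air libraries of the series (5 of liver and 6 of lung, of 22 libraries in all). Genes were joined by Ensembl identifier, which left 11533 genes in both organ tables, of 16697 in either. The mice were male C57BL/6J, an inbred strain, were 14 weeks old by their labels and ate normal chow. Air was cleaned by carbon and HEPA filters, and the other libraries of the study came from mice given 50 ppm benzene for 6 hours a day, 5 days a week, over 6 weeks. RNA was extracted with Trizol from whole tissue, poly-A RNA was sequenced as read pairs of 150 bases, and the labels do not say that each library came from a separate animal, so p-values may measure technical spread. In RNA of a whole organ, fewer cells of a type and less RNA per cell cannot be told apart.

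The liver is built mainly of hepatocytes, which make most plasma proteins, carry out gluconeogenesis and urea synthesis, and oxidise and conjugate foreign compounds. The lung holds gas-exchanging alveolar epithelium, surfactant-producing alveolar type II cells, club and ciliated airway cells, a dense capillary bed, elastic connective tissue and many resident leukocytes. Club cells also carry cytochrome P450 enzymes, and benzene itself is oxidised by CYP2E1 and by CYP2F2.

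Hepatocyte and lung epithelial genes are driven in part by the factors HNF4A, FOXA and NKX2-1, and promoters of 3 genes that the results turn on are shown for that reason. Sequences are those of RefSeq for GRCm38.p6, 250 bases ending 1 base before the transcript start, 5′ to 3′ on the strand of the gene. Capitals mark matches, on either strand, to CAAAGTCCA (HNF4A), TGTTTAC (FOXA) or CACTTGA (NKX2-1), read as TCAAGTG on the other strand. Cyp3a11 (a drug-oxidising P450; chr5:145879855-145880104, minus strand) stands for liver, Lyz2 (lysozyme of macrophages and type II cells; chr10:117282273-117282522, minus strand) and Cyp2f2 (the club cell P450; chr7:27119705-27119954, plus strand) for lung. Cyp2f2 was the leading P450 gene within lung but, as given below, was not called higher in lung than in liver.
Cyp3a11: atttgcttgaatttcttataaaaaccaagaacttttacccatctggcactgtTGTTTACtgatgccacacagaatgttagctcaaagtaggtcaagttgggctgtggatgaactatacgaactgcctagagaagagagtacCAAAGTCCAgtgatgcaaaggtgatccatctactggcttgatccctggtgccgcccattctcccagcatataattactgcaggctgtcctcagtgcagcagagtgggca
Lyz2: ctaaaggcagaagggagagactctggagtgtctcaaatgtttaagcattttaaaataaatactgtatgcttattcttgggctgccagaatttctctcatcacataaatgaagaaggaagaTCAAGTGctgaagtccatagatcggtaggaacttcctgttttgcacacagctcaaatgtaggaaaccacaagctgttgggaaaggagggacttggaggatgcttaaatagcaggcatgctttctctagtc
Cyp2f2: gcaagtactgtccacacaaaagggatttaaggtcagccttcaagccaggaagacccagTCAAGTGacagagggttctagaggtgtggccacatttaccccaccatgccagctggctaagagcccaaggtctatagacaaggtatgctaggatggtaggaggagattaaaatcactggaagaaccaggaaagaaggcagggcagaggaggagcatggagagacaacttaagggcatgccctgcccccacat
The matches of Cyp3a11 begin 109 (HNF4A) and 198 (FOXA) bases before the start. The NKX2-1 match lies 130 bases before the start in Lyz2 and 192 in Cyp2f2. Of all 32851 RefSeq promoters of this length, 0.384% hold the HNF4A letters, 3.17% the FOXA letters and 2.68% the NKX2-1 letters. These promoters were printed because they match: of the 30 liver and 29 lung genes of highest level or change looked at, 20 and 19 had a promoter in the RefSeq table and 2 and 4 held any motif searched, CEBP (TTGCGCAA) and ETS (CCGGAAGT) included. A match is a run of letters, not a binding site.

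Library depth was alike in both organs, at 9.46 to 12.4 M reads (1 M is 1000000 reads) in liver and 8.30 to 11.9 M in lung. Genes in both tables held 78.7 to 79.6% of liver reads and 78.8 to 82.7% of lung reads. The tables were scaled separately by the authors, so each library was rescaled to the same total of 1000000 over these genes. Levels of genes in both tables are in this unit, called CPM over shared genes, as mean ± SD over 5 liver and 6 lung libraries. Changes are log2(liver + 1) minus log2(lung + 1), with their SE and a Benjamini-Hochberg adjusted p from limma over 11515 genes, so a negative change means higher in lung, and the scale understates changes of genes near 0. Each organ has its own table, so a difference between tables cannot be told apart from one between organs. Lung air replicate 5 stood apart, with 894 genes at 0 reads where the other lungs had 17 to 61, and values without it are given where a call or count moves by over 1.5 times. As deposited, its values summed to 1325410, where those of the other lungs summed to 971364 to 1010490. Its values on the deposited scale, used for genes in 1 table only and for sums over lists, therefore run high. Liver air replicate 1 was the library farthest from the other livers in 26 of the 195 genes named in the text, and leaving it out ended 1 call of the genes named, that of Inmt. The median gene had an SD of 0.193 (log2) over livers, 0.308 over lungs and 0.158 over lungs without replicate 5.

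A handful of transcripts filled much of the liver library. The 10 highest shared genes took 20.2 ± 0.604% of liver reads on shared genes and 5.20 ± 0.464% of lung reads (mean ± SD, exact two-sided permutation p = 0.00433, the smallest that 5 against 6 libraries allow). Mitochondrially encoded genes took 4.90 ± 0.353% in liver and 1.67 ± 0.549% in lung, and every liver was above every lung (exact permutation p = 0.00433, again the smallest). Replicate 5 was the lowest lung at 0.636%. Alb alone was at 92810.4 ± 3100.5 CPM over shared genes in liver, so the remaining liver genes share what it leaves. For that reason a second scaling, TMM, which centres the bulk of genes, is given beside the first: it moved the median change over all genes from -0.88 to 0.02.

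A gene counts as higher in an organ at an adjusted p under 0.05 and a log2 change of at least 1. Under sum scaling 1164 genes (10.1% of those tested) were higher in liver and 5303 (46.1%) higher in lung, 56.2% in all. The libraries of the organs did not overlap in 13.9% (liver higher) and 53.2% of genes (lung higher), or 67.1%. Under TMM the split was 2485 (21.6%) and 2486 (21.6%). All 1164 liver calls (10.1%) stood under both scalings, as did 2486 lung calls (21.6%), and no gene was called in opposite directions. TMM shifted the median change by 0.90 towards liver, so it could hardly end a liver call or add a lung call. Calls by both scalings are therefore those of sum scaling for liver and those of TMM for lung, and this overlap is no independent check. Without lung air replicate 5 the counts by sum scaling were 1102 (9.57%) and 5551 (48.2%), 57.8% together. The benzene libraries of the same organs, which did not enter the fit, also called 1037 of the liver genes and 4914 of the lung genes in the same direction. Below, lung counts are given by sum scaling and then by both scalings, and any named lung gene that TMM did not call is marked; counts of list members are descriptions, to be read against these percentages.

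**Figure D1:**
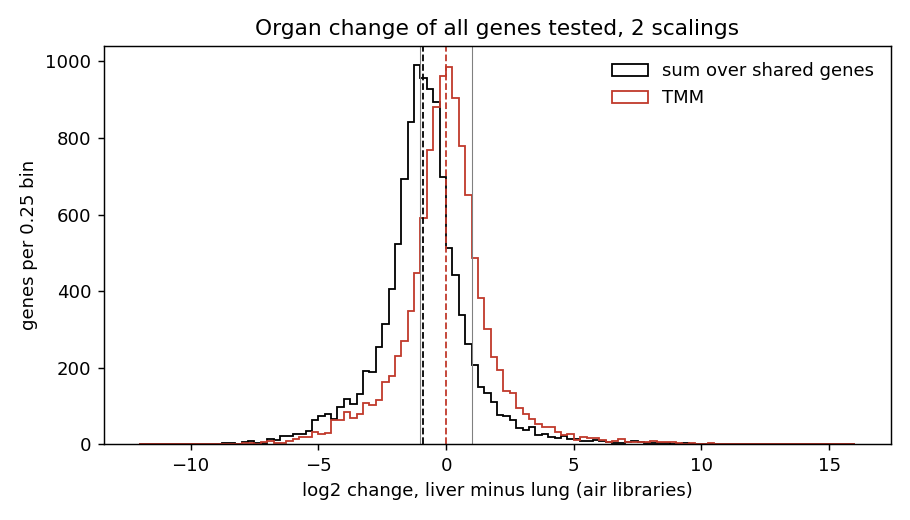
Distribution of log2 changes (x axis, liver minus lung) over the genes tested (y axis, genes per 0.25 bin) under sum scaling (black) and TMM (red). Dashed lines are the medians, -0.88 and 0.02, and grey lines mark a change of 1 in either direction; the TMM distribution lies to the right of the other.

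Alb (albumin, the main plasma protein) was the gene of highest change. The gene lies at chr5:90460897-90476602 (GRCm38) and was at 96988, 89259.8, 91329, 91529.5 and 94945 CPM over shared genes in the 5 livers and at a lowest of 0, a median of 2.70 and a highest of 5.20 in the lungs (log2 change 14.80 ± 0.36, adjusted p = 2.62e-13). Every liver stood far above every lung. Ahsg, which encodes the plasma glycoprotein fetuin-A, was at 8000.2 ± 119 in liver and 2.34 ± 0.904 in lung (log2 change 11.26 ± 0.14, adjusted p = 1.27e-15), and Hpx, the haem carrier hemopexin, at 5109 ± 244 and 2.23 ± 0.455 (log2 change 10.64 ± 0.11, adjusted p = 2.2e-16). Further genes among the 12 of highest change were Uox (10.35), the urate oxidase, Tat (9.81), which breaks down tyrosine, Fabp1 (9.52), the liver fatty acid binding protein, Arg1 (9.50), the last enzyme of the urea cycle, and Fbp1 (9.22), a gluconeogenic phosphatase.

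At the lung end stood Mgp, the matrix Gla protein that restrains calcification. The gene lies at chr6:136872435-136875823, and its lung libraries ran from 2408 through a median of 2634 to 5118 CPM over shared genes, against 2.14, 2.67, 2.16, 1.84 and 3.89 in the livers (log2 change -9.71 ± 0.20, adjusted p = 5.33e-14), with no overlap. Thbd, the endothelial thrombin receptor thrombomodulin, was at 1.22 ± 0.415 in liver and 930.3 ± 238 in lung (log2 change -8.68 ± 0.21, adjusted p = 2.32e-13). Sftpd, the collectin surfactant protein D, was at 1.82 ± 0.532 and 1074 ± 62.5 (log2 change -8.59 ± 0.12, adjusted p = 2.07e-15), and Lyz2 at 17.2 ± 2.66 and 6654 ± 2034 (log2 change -8.44 ± 0.25, adjusted p = 1.67e-12), where replicate 5 was the lowest lung at 2640.4. Gpx3, the secreted glutathione peroxidase (-8.46), Cav1, the caveolar coat protein (-8.34), Lpcat1, which remodels surfactant lipid (-8.26), Acvrl1, an endothelial BMP receptor (-7.98), and Krt7, a simple-epithelium keratin (-7.91), also lay among the 12 of lowest change.

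The organ labels were checked against markers. Of 22 hepatocyte markers 21 were in a table, 13 of them in the liver table only, and all 8 that could be tested were higher in liver. Of 16 lung epithelial markers 13 were in the lung table only and the other 3, Sftpd, Hopx and Lpcat1, were higher in lung. Each table on its own scale, the deposited CPM of lung epithelial genes summed over 3 genes in the liver table and 16 in the lung table ran from 48.3 to 62.3 in livers and from 93072 to 203999 in lungs, the highest in replicate 5. The hepatocyte markers still listed for lung summed to 1589 to 1801 deposited CPM there, most of it Hp, the haemoglobin-binding haptoglobin. In CPM over shared genes, a different scale that cannot be set against that sum, Hp was at 4137 ± 462 in liver and 1875 ± 242 in lung (1.14).

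Many of the most abundant organ genes were in 1 table only, so no fold could be formed for them. A row missing from a table depends on the authors' filter, which is not given in the sources used here, and does not show that the gene was silent. The liver table alone held 726 genes, which took 21.0 ± 0.363% of its reads, and 180 of them had a mean of at least 100 in deposited CPM. The lung table alone held 4438, which took 18.8 ± 1.32% of its reads, and 110 of these reached 100. In liver the leading genes were Apoa1 at 10979 ± 1354 (SD, n = 5) and Apoa2 at 9355 ± 1511, the proteins of high-density lipoprotein, Ttr at 9670.3 ± 1114, which carries thyroid hormone, Cyp3a11 at 8244 ± 317, Mup3 at 8149 ± 324, a urinary pheromone carrier, and the protease inhibitors Serpina1c at 7962 ± 953 and Serpina3k at 7777 ± 364. Mup3 and the Serpina genes have near-identical copies between which reads could be split, so their single values are uncertain.

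In lung the order of genes in its table only was led by Scgb1a1, the club cell secretoglobin, with 53628, 61365 and 103021 deposited CPM as the lowest, median and highest library. Sftpc, the surfactant protein of type II cells, had 23660.5, 33003 and 74185 on the same scale. Replicate 5 gave the highest value of both genes, whose means were 66952 ± 18019.9 and 37351 ± 18483 (SD, n = 6). The larger deposited sum of that library adds to these means and SDs. Cbr2, a lung carbonyl reductase, was at 7439 ± 919.6, the surfactant genes Sftpa1 at 3683 ± 805 and Sftpb at 2845 ± 508, the secretoglobin Scgb3a2 at 3114 ± 1744, the type I cell receptor Ager at 2870.0 ± 743 and Bpifa1, an airway surface protein, at 2067 ± 548.

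Cytochrome P450 genes, which oxidise drugs, solvents, steroids and fatty acids, leaned to liver but not uniformly. Of 70 P450 genes in either table, 41 were in the liver table only, 5 in the lung table only and 24 could be tested; 14 were higher in liver and 6 in lung, 4 by both scalings. Their median change was 1.98, against -0.88 over all genes. As a share of each table's reads the family took 3.48 ± 0.0782% in liver and 0.447 ± 0.127% in lung. Cyp2e1 (chr7:140763739-140774987), the enzyme that starts benzene oxidation, was at 10179.9, 10025, 10150.4, 10285 and 10424 CPM over shared genes in liver and from 65.3 to 151, median 130.1, in lung (log2 change 6.42 ± 0.18, adjusted p = 9.62e-13). It was 83.3-fold higher in liver, and no library overlapped. Cyp2a5, a coumarin hydroxylase, was also higher in liver (3.34), as was Cyp8b1, which sets bile acid make-up (7.72).

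The P450 genes called higher in lung by both scalings were Cyp4b1, which activates furans and other lung toxicants, Cyp2b10, Cyp1a1 and Cyp4f16. Cyp4b1 (chr4:115624725-115647723) was at 5.86, 8.16, 6.11, 8.08 and 4.58 CPM over shared genes in livers and at a lowest of 366, median of 769.7 and highest of 863 in lungs (log2 change -6.55 ± 0.21, adjusted p = 3.67e-12). Cyp2b10, known in liver as the target of the receptor CAR, was at 33.9 ± 1.91 in liver and 389 ± 65.1 in lung (log2 change -3.46 ± 0.13, adjusted p = 1.43e-11), and Cyp1a1, the classic target of the aryl hydrocarbon receptor, at 1.56 ± 0.412 and 66.1 ± 29.4 (log2 change -4.64 ± 0.23, adjusted p = 2.33e-10). Cyp2f2, the other benzene oxidase, did not pass the rule: livers were at 1644, 1629.7, 1601, 1555 and 1571, lungs ran from 906 through 3658 to 4084 (log2 change -0.89 ± 0.33, adjusted p = 0.0225; TMM 0.08). The lowest lung, replicate 5, lay below every liver and the other 5 lungs above; without it the change was -1.24 (adjusted p = 2.25e-13) by sum scaling.

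**Figure D2:**
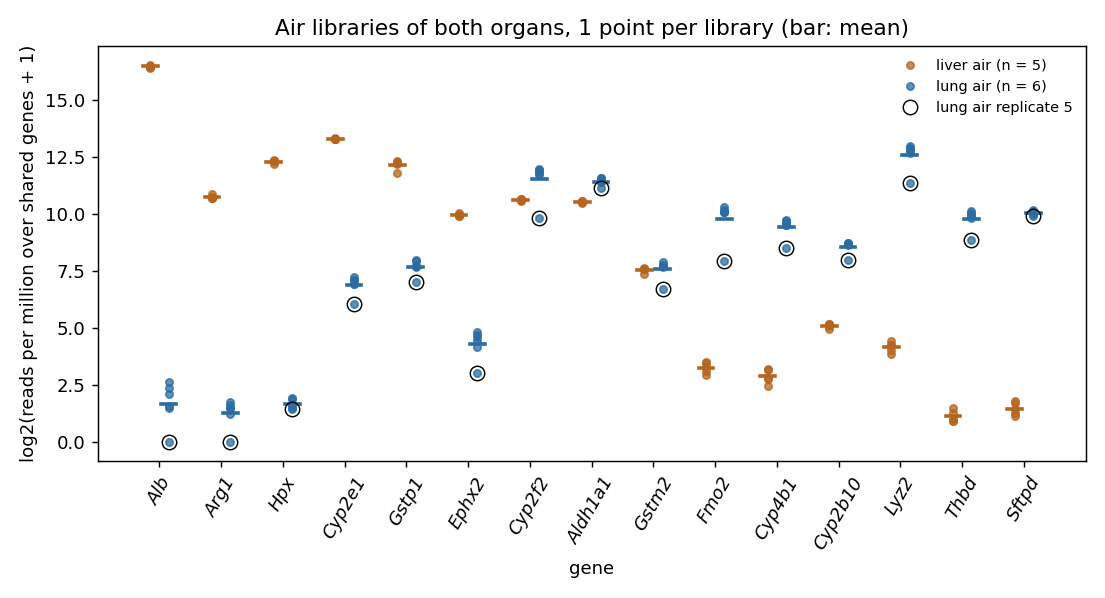
Level of 15 genes (x axis) as log2(CPM over shared genes + 1) (y axis) in each air library, liver in brown and lung in blue, with bars at the mean and a ring around lung air replicate 5. Alb, Arg1 and Hpx separate the organs towards liver and Lyz2, Thbd and Sftpd towards lung, while Cyp2f2 and Aldh1a1 lie close together.

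Within each organ the family was made up differently. Per exon length, Cyp2e1 was 27.7 ± 0.275% of the P450 total of the liver table and 2.33 ± 0.384% of that of lung, Cyp3a11 was 11.9 ± 0.488% in liver and not in the lung table used here, and Cyp2f2 was 4.62 ± 0.145% in liver and 62.2 ± 9.65% in lung (mean ± SD over libraries). Cyp4b1 followed in lung at 12.98 ± 1.32%. Flavin monooxygenases, which oxidise nitrogen and sulfur compounds, were led by Fmo5 in liver (78.1 ± 0.684%) and by Fmo2 in lung (57.0 ± 10.3%). Carboxylesterases, which split ester drugs and lipids, were led by Ces1c in liver (32.6 ± 0.664%) and by Ces1d in lung (92.3 ± 1.09%). Aldehyde dehydrogenases were led by Aldh2 in liver (27.0 ± 1.19%) and Aldh1a1 in lung (52.5 ± 4.75%). Glutathione transferases had the same leader in both organs, Gstm1, at 30.8 ± 0.791% and 29.2 ± 4.54%. Members of these families share sequence, so reads may be split between near copies.

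**Figure D3:**
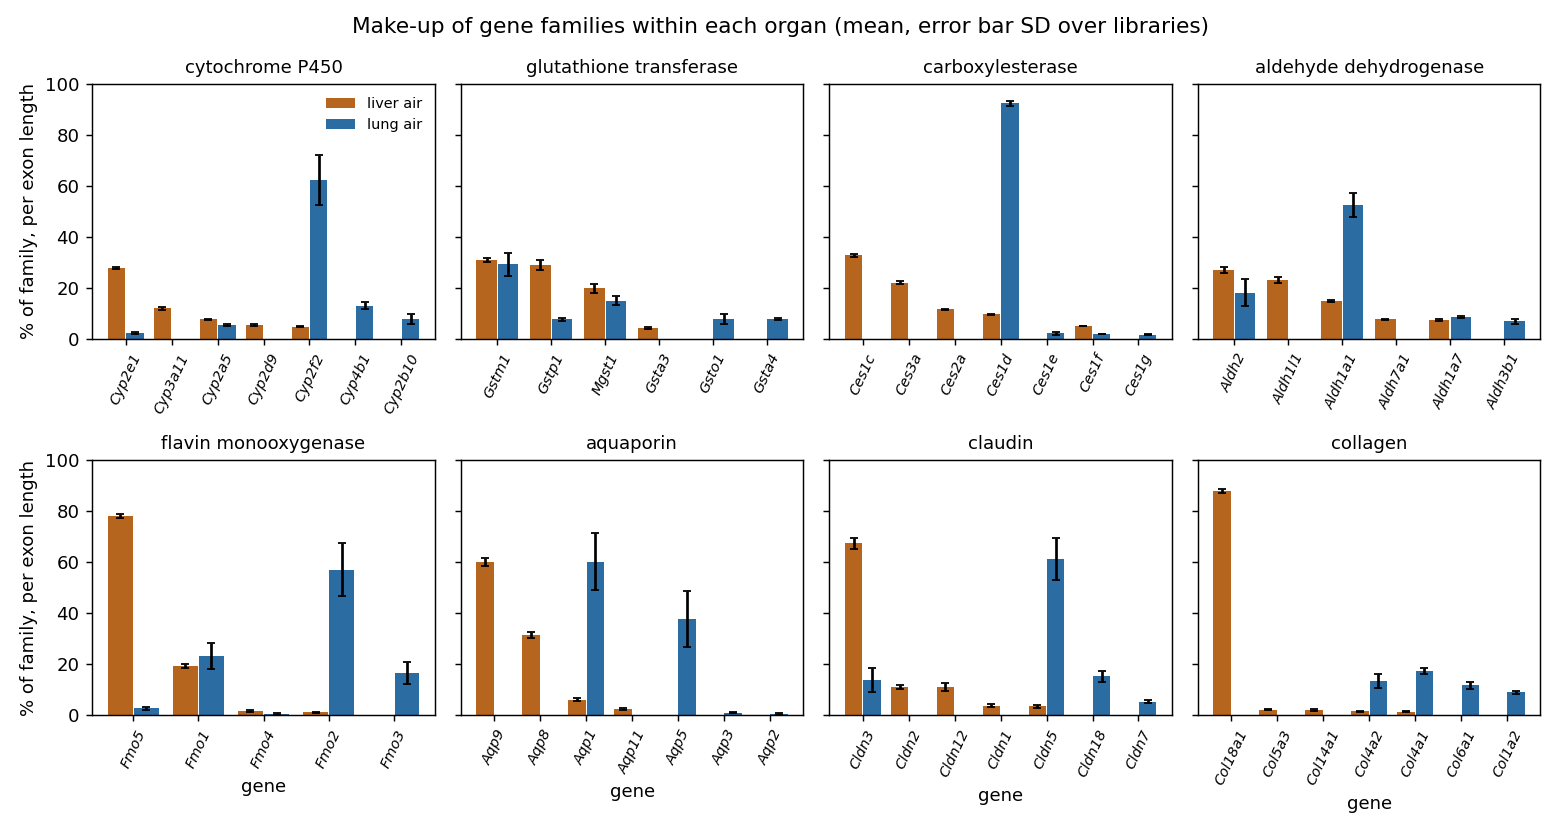
Make-up of 8 gene families within each organ: the y axis is a gene's percent of its family per exon length (mean, error bar SD over 5 liver or 6 lung libraries), and the x axis lists the 4 leading genes of either organ, with no bar where a table lacks the gene. Cyp2e1 at 27.7% leads liver P450 genes and Cyp2f2 at 62.2% leads those of lung.

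Benzene is oxidised to an epoxide and phenols, which epoxide hydrolases, quinone reductases, dehydrogenases and conjugating enzymes then handle. Of 23 such genes in either table, 20 were tested, and 12 were higher in liver, 3 in lung (2 by both scalings) and the others passed neither way; without lung air replicate 5 the lung count was 5, with Cyp2f2 and Nqo1 added. Gstp1, a glutathione transferase that is high in livers of male mice, was at 3625, 4729, 4992, 4965 and 5193 CPM over shared genes in livers and from 129.9 to 256, median 213, in lungs (log2 change 4.49 ± 0.17, adjusted p = 1.4e-11), without overlap. Ephx2, the soluble epoxide hydrolase, was at 1012 ± 37.4 and 20.3 ± 7.34 (log2 change 5.67 ± 0.25, adjusted p = 9.8e-11), and Ephx1, the microsomal enzyme that opens benzene oxide, at 708 ± 22.7 and 286 ± 85.0 (log2 change 1.39 ± 0.23, adjusted p = 8.01e-05). Dhdh, a dihydrodiol dehydrogenase (3.15), Adh1, the main alcohol dehydrogenase (3.91), Cat, which removes hydrogen peroxide (3.17), Gstm1 (2.67), Gstt1 (2.03), Nqo2 (1.93) and Sult1a1, a phenol sulfotransferase (1.58), were higher in liver as well.

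The lung calls of that list were Cyp4b1, Cyp2b10 and Hmox1, the haem oxygenase (-1.34; TMM -0.40, not called). Among the genes that were not called, Aldh1a1, which oxidises retinal and other aldehydes, was at 1512 ± 42.0 in liver and 2793 ± 304 in lung (-0.88; TMM 0.09), Nqo1, the quinone reductase, at 7.91 ± 0.967 and 16.04 ± 4.28 (-0.90; TMM -0.01), Adh7, a retinol-active dehydrogenase, at 30.7 ± 4.19 and 41.8 ± 5.11 and Akr1a1, an aldehyde reductase, at 650.4 ± 43.9 and 666 ± 28.1. Ugt1a6a, a phenol glucuronosyltransferase, and Akr1c6 were in the liver table only, at 1.60 ± 0.525 and 1207 ± 56.8 deposited CPM, and Aldh3a1, an aldehyde dehydrogenase of airway epithelium, in the lung table only, at 84.3 ± 8.80. UDP-glucuronosyltransferases, which make foreign compounds water-soluble, gave 15 genes in the liver table and 1 in the lung table.

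Other oxidising and conjugating lists also leaned to liver. Of 24 glutathione transferase and glutathione synthesis genes tested 14 were higher in liver and 1 in lung, Mgst3, a call that TMM did not make; without lung air replicate 5 the lung count was 2, with Gsto1 added. Of 32 dehydrogenases and reductases 20 were higher in liver, such as Aldh1l1 of folate metabolism (6.21), and 4 in lung by both scalings, such as Aldh3b1 (-5.27) and Cbr3, a carbonyl reductase (-4.56). Of 14 esterases and epoxide hydrolases 10 were higher in liver, led by Ces2e (6.16), and only the paraoxonase Pon2 was higher in lung, not by TMM. Fmo2 was at 10.5, 6.82, 10.1, 7.67 and 8.94 CPM over shared genes in livers and from 250.1 to 1286, median 1099, in lungs (log2 change -6.52 ± 0.35, adjusted p = 6.79e-10); replicate 5 was again the lowest lung. Of 25 antioxidant genes 7 were higher in liver (14 by TMM) and 7 in lung (3 by both scalings). Their median change was 0.56, against -0.88 over all genes. Gpx1, the cytosolic peroxidase, was higher in liver (2.46), and the secreted Gpx3 and the extracellular superoxide dismutase Sod3 (-3.64) were higher in lung.

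Transporters and receptors of foreign compounds had calls towards both organs. Shares higher in liver were 37.5% and 35.3%, against 10.1% over all genes. Those higher in lung were 43.8% and 35.3%, against 46.1% over all genes. TMM called 7 transporters higher in liver and 5 in lung, and 8 receptors and partners higher in liver and 3 in lung. Of 16 transporters tested 6 were higher in liver, among them Abcb4, which exports phospholipid into bile (6.00), and 7 in lung (5 by both scalings), among them Slco3a1 (-5.36) and Slc15a2, a peptide carrier (-4.02). A further 10 were in the liver table only. Of 17 receptors and partners 6 were higher in liver, including Nr1i2, the pregnane X receptor (4.15), and Ppara (3.64), and 6 in lung, 3 by both scalings: Nfe2l2, the NRF2 factor (-2.004), Tiparp, a target of the aryl hydrocarbon receptor (-2.78), and Ppard (-2.06).

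Intermediary metabolism leaned to liver. Of 19 amino acid catabolism genes tested 18 were higher in liver, with a median change of 5.67 against -0.88 over all genes, and a further 10 were in the liver table only. Tat was at 2353, 2216, 2251, 2264 and 2207 CPM over shared genes in livers and at most 2.97 in a lung (log2 change 9.81 ± 0.28, adjusted p = 1.04e-12), Tdo2, which opens the tryptophan ring, changed by 8.71 and Gnmt, a glycine methyltransferase, by 7.96. The exception was Mat2a, the methionine adenosyltransferase of other tissues (-1.12; TMM -0.16, not called). Of 9 urea cycle and ammonia genes 7 were higher in liver, with Arg1 at 1747 ± 92.7 and 1.59 ± 0.861 and Ass1 at 7343 ± 246 and 35.3 ± 7.94, and the liver-type glutaminase Gls2 changed by 7.75.

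Several enzymes came as organ-matched pairs of isoforms. Gluconeogenesis and glycogen genes were higher in liver in 10 of 13 cases, the cytosolic Pck1 among them at 3917 ± 99.0 and 21.6 ± 7.11 (log2 change 7.53 ± 0.24, adjusted p = 3.3e-12), and the mitochondrial isoform Pck2 was the 1 higher in lung (-2.73). Glycolysis genes were divided, 6 of 17 higher in liver and 10 in lung (7 by both scalings). Gapdh (1.94) and Eno1 (2.18) were higher in liver. The muscle-type pyruvate kinase Pkm, at 8.44 ± 0.953 and 448 ± 32.6 (log2 change -5.57 ± 0.10, adjusted p = 1.05e-14), the lactate dehydrogenase Ldhb (-6.06) and the hexokinase Hk1 (-4.46) were higher in lung. In lipid synthesis the desaturase pair parted in the same manner: Scd1 was at 6488 ± 719 in liver and 1312 ± 178 in lung (log2 change 2.31 ± 0.13, adjusted p = 1.2e-09), and Scd2 at 3.03 ± 0.604 and 715 ± 164 (log2 change -7.44 ± 0.18, adjusted p = 2.87e-13). Fasn, the fatty acid synthase that both organs use, was at 337 ± 8.76 and 358 ± 71.8 and was not called.

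Fatty acid oxidation genes were higher in liver in 20 of 27 cases, with the peroxisomal thiolase Acaa1b (7.30) as an example. Among the 4 lung calls (2 by both scalings) were the fatty acid receptor Cd36, at 33.3 ± 2.58 and 1002 ± 126 (log2 change -4.86 ± 0.11, adjusted p = 1.02e-13), and the binding protein Fabp4 (-4.83). Lipoprotein genes were divided: 11 were in the liver table only, and of 12 tested 6 were higher in liver and 5 in lung (4 by both scalings). Lcat, which esterifies plasma cholesterol, was higher in liver (8.04), whereas the capillary lipolysis genes Lpl (-3.18) and Gpihbp1 (-4.40) were higher in lung. Apoe, at 34279 ± 2575 in liver, was still at 1165 ± 110.3 in lung (4.88). Of 18 cholesterol and bile acid genes tested 8 were higher in liver and 2 in lung (1 by both scalings), the esterifying Soat1 in lung (-5.18).

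Plasma protein genes were mostly higher in liver, with a set of lung exceptions in each list. Of 18 acute phase and carrier genes 15 were higher in liver and 3 in lung, 2 by both scalings, of which Lcn2, the iron-sequestering lipocalin, was at 3.93 ± 2.31 and 157 ± 28.3 (log2 change -5.11 ± 0.26, adjusted p = 3.46e-10). In coagulation 8 of 15 were higher in liver, such as Serpinc1, antithrombin (8.66), and Proc, protein C (8.43), and 6 in lung (5 by both scalings), with Thbd, Vwf, the platelet-binding von Willebrand factor (-6.33), and F3, tissue factor (-4.16). In complement 9 of 19 were higher in liver, such as C3 at 6033 ± 347 and 772 ± 153 (2.99) and C8g (8.20), and 7 in lung (4 by both scalings), such as Cfd, factor D (-7.20), C1qa (-2.27) and the cell-surface inhibitor Cd55 (-4.29).

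Mitochondrial genes depended on the scaling. Of 78 nuclear genes of the respiratory chain 18 were higher in liver by sum scaling and 57 by TMM, and 3 were higher in lung by either: Cox7a1, a heart and muscle isoform (-3.71), Ndufa4l2 (-4.23) and Ndufb2 (-1.91). The median change of the group was 0.47 by sum scaling and 1.44 by TMM, above the all-gene medians of -0.88 and 0.02. Of 10 mitochondrially encoded genes 8 were higher in liver by sum scaling and all by TMM. mt-Co1, a cytochrome oxidase subunit, was at 23998, 18604, 19431, 19185 and 21569 CPM over shared genes in livers and from 517 to 7657, median 6436, in lungs (log2 change 2.23 ± 0.58, adjusted p = 0.00293), and its lowest lung was replicate 5, without which the change was 1.61.

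Leukocyte genes stood on the lung side. All 8 dendritic cell and MHC class II genes tested were higher in lung by both scalings, with a median of -4.96. Cd74, the invariant chain that guides class II assembly, was at 33.4, 47.1, 48.0, 47.2 and 37.0 CPM over shared genes in livers and from 1226 to 2359, median 1987, in lungs (log2 change -5.43 ± 0.17, adjusted p = 2.37e-12), and H2-Ab1, a class II beta chain, was at 23.4 ± 2.85 and 869 ± 144. Of 7 B and plasma cell genes 6 were higher in lung by both scalings, among them the immunoglobulin constant genes Igkc, at 4.46 ± 1.26 and 685 ± 224 (log2 change -6.94 ± 0.23, adjusted p = 4.63e-12), Ighm (-6.29) and Igha (-6.16), and a further 15 were in the lung table only. T and NK genes were nearly all in the lung table only, 28 of 33, and of the 5 tested 4 were higher in lung, such as Thy1 (-3.91) and the kinase Lck (-3.05).

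Myeloid genes were higher in lung in 16 of 18 cases, 14 by both scalings, including Lgals3, galectin-3 (-5.88), and Cd14, the endotoxin co-receptor (-4.90). Kupffer cells are the resident macrophages of liver. Of 17 genes listed for them 3 were higher in liver (17.6%, against 10.1% over all genes). Among them was Cd5l, a macrophage-secreted protein, at 26.0, 31.3, 28.5, 30.8 and 25.2 CPM over shared genes in livers and at most 3.45 in a lung (log2 change 3.25 ± 0.20, adjusted p = 2.42e-09). Another was Slc40a1, the iron exporter (3.104), which hepatocytes may share. The defining markers Clec4f and Vsig4 were in the liver table only, at 29.4 ± 2.36 and 5.75 ± 0.761 deposited CPM, and Timd4 was at 2.17 ± 0.936 and 2.98 ± 0.937 CPM over shared genes, not called. The list also holds genes that other macrophages and endothelium express, and 12 of it were higher in lung (70.6%, against 46.1% over all genes). By both scalings 5 were, and the benzene libraries called 5 higher in lung by sum scaling.

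Of alveolar macrophage genes 12 of 14 were higher in lung (8 by both scalings), including Ear2, an eosinophil-type ribonuclease (-4.77), and Fabp1, which hepatocytes also make, was higher in liver. Of 20 neutrophil genes listed 5 were found in neither table: Camp, Elane, Ly6g, Mpo and Ngp. The other 15 were in the lung table only in 12 cases, and all 3 tested were higher in lung, Il1b, interleukin-1 beta, among them (-3.62). Class I antigen presentation was less divided, with 10 of 18 higher in lung by sum scaling (55.6%, against 46.1% over all genes) and 4 by both. TMM called 3 higher in liver. H2-K1, a classical class I chain, was at 2041 ± 101 and 1630.3 ± 320.0, and B2m at 2137 ± 77.6 and 1441 ± 327. Neither was called by sum scaling, and both were higher in liver by TMM (1.32 and 1.58). Interferon-stimulated genes were higher in lung in 15 of 28 cases (10 by both scalings), with Gbp2 (-4.86) as an example, and higher in liver in 2, with Iigp1 (2.30). Shares by sum scaling were 53.6% and 7.14%, near the 46.1% and 10.1% over all genes. Their median change by TMM was -0.31, against 0.02 over all genes. Chemokine genes were mostly in the lung table only, 29 of 42. Of 12 tested 4 were higher in lung, all by both scalings (33.3%, against 46.1% over all genes). In liver 2 were higher (16.7%, against 10.1%), Ccl9 (1.28) and the scavenging receptor Ackr4 (2.61). TMM called 5 higher in liver and 4 in lung, and the median change by sum scaling was -0.25, against -0.88 over all genes. Of 17 pattern recognition and collectin genes tested 4 were higher in liver and 9 in lung (7 by both scalings). Shares were 23.5% and 52.9%, against 10.1% and 46.1% over all genes. The collectin Sftpd was higher in lung, and Colec11 (3.05) and Pglyrp2, a liver peptidoglycan amidase (6.05), in liver. Mbl2 and Mbl1, at 403 ± 38.7 and 165 ± 10.8 deposited CPM, were in the liver table only, and Sftpa1 in the lung table only.

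Alveolar and ciliated genes were mostly on the lung side, and other epithelial lists did not separate by organ of origin. Of 10 alveolar type I genes tested 9 were higher in lung by both scalings, such as Clic5 (-7.75) and Hopx at 64.4 ± 6.57 and 1097 ± 261 (log2 change -4.04 ± 0.15, adjusted p = 1.48e-11), and Igfbp2, an IGF binding protein that hepatocytes secrete, was higher in liver (1.34). Of 13 type II genes 9 were higher in lung (8 by both scalings), and Hc, complement C5, was higher in liver (1.36). Club and secretory airway genes included 16 in the lung table only; of 8 tested, Cyp2a5, Hp and Pigr, the immunoglobulin transporter (3.85), were higher in liver, and Fmo2 and Selenbp1 (-1.28; TMM -0.31, not called) in lung. Without lung air replicate 5 Cyp2f2 and Gsto1 were added, and the lung count was 4 against 3 in liver. Ciliated cell genes were in the lung table only in 24 of 29 cases. Cholangiocytes line the bile ducts of liver, yet of 13 genes listed for them 1 was higher in liver and 8 in lung (6 by both scalings). Shares were 7.69% and 61.5%, against 10.1% and 46.1% over all genes, and TMM called 4 higher in liver.

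Keratins, junctions and channels gave a similar picture of shared and separate genes. Krt8 and Krt18, the keratins of simple epithelia and hepatocytes, were at 322 ± 7.38 and 243 ± 23.7 in liver and 339.7 ± 17.2 and 181 ± 23.8 in lung, and neither was called by sum scaling, while TMM put Krt18 higher in liver (1.40). Krt19, the keratin of ducts and airways, was at 1.62 ± 0.580 and 313 ± 42.6 (log2 change -6.92 ± 0.15, adjusted p = 1.15e-13), and the adhesion molecule Epcam changed by -5.47. The gap junction gene Gjb2 was higher in liver (5.86) and Gja1 in lung (-4.07). Claudins, the sealing proteins of tight junctions, were led per exon length by Cldn3 in liver (67.4 ± 2.08% of the family) and by Cldn5 in lung (61.2 ± 8.27%), which endothelium uses. Water channels were led by Aqp9, the glycerol channel, in liver (59.9 ± 1.57%) and by Aqp1 (60.2 ± 11.2%) and Aqp5 (37.6 ± 10.8%) in lung.

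General and lung capillary endothelial genes were higher in lung, and sinusoidal ones had calls towards both organs. All 24 pan-endothelial genes tested were higher in lung by both scalings, with a median change of -5.08 by sum scaling and -4.24 by TMM, against all-gene medians of -0.88 and 0.02. Cldn5 was at 8.33, 9.49, 9.16, 8.08 and 5.27 CPM over shared genes in livers and from 666 to 1907, median 799, in lungs (log2 change -6.65 ± 0.24, adjusted p = 1.08e-11), and Calcrl, the adrenomedullin receptor, at 5.74 ± 1.02 and 769 ± 97.9 (log2 change -6.84 ± 0.12, adjusted p = 1.73e-14). All 14 lung capillary genes tested were higher in lung as well (11 by both scalings), among them Kitl, the KIT ligand (-6.66). Of 19 liver sinusoidal endothelial genes 5 were higher in liver (26.3%, against 10.1% over all genes), such as the lectin Clec4g (3.71) and Dnase1l3 (3.52). In lung 7 were higher (36.8%, against 46.1% over all genes), 5 by both scalings, such as Lyve1, the hyaluronan receptor of sinusoids and lymphatics (-5.97). Lyve1 was at 25.7 in lung air replicate 5 and at 268 in the highest lung. TMM called 6 genes of the list higher in liver and 5 in lung.

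Connective tissue and smooth muscle genes were mostly higher in lung as well. Of 43 matrix genes 38 were higher in lung (35 by both scalings), including the elastic fibre genes Eln (-5.58) and Mfap4 (-6.86). The 4 higher in liver included Col18a1, whose collagen carries the endostatin fragment, at 1092, 1063, 969, 981 and 979 CPM over shared genes in livers and from 18.1 to 66.8 in lungs (log2 change 4.37 ± 0.27, adjusted p = 2.59e-09). It made up 87.9 ± 0.678% of liver collagen transcripts per exon length, where the leading lung collagen, Col4a1 of basement membrane, made up 17.3 ± 1.21%. All 10 smooth muscle genes tested were higher in lung by both scalings, with Acta2, smooth muscle actin, at 7.16 ± 1.13 and 581 ± 108 (log2 change -6.14 ± 0.15, adjusted p = 2.21e-13). Fibroblast and pericyte genes were higher in lung in 16 of 19 cases (14 by both scalings), Pdgfra among them (-6.10). Hepatic stellate cells store vitamin A, and of 17 genes listed for them 5 were higher in liver and 7 in lung (6 by both scalings). These shares were 29.4% and 41.2%, against 10.1% and 46.1% over all genes.

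Transcription factors of each organ's cell types were largely in the table of that organ or higher there. Hnf4a and Foxa3, which drive hepatocyte genes, were in the liver table only, at 421 ± 47.6 and 54.9 ± 2.21 deposited CPM, and Nkx2-1, Foxf1 and Foxj1, of lung epithelium, mesenchyme and cilia, were in the lung table only, at 216 ± 41.0, 206 ± 35.8 and 115 ± 24.0. Of 19 liver factors tested 8 were higher in liver, with Prox1 (4.05) and Mlxipl, the carbohydrate response factor (4.51), and 6 in lung, 2 by both scalings, Cebpd (-4.27) and Gata6 (-3.03). Of 18 lung factors 15 were higher in lung (10 by both scalings), such as Klf2, a flow-responsive endothelial factor (-5.71), and Tbx2 (-6.32). All 14 Hox genes listed, which record position along the body axis, were in the lung table only, the highest being Hoxa5 at 64.4 ± 12.6 deposited CPM.

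Genes of heart muscle, skeletal muscle, squamous epithelium and red cells were also counted in lung. Of 22 cardiac genes 18 were in the lung table only, and all 4 tested were higher in lung (3 by both scalings). Their sum ran from 2512 to 3374 deposited CPM, median 3167, in lungs. Tnnt2, cardiac troponin T, was at a lowest of 292, median of 453 and highest of 592 CPM over shared genes in lungs and at most 1.60 in a liver (log2 change -7.81 ± 0.23, adjusted p = 1.29e-12); mouse pulmonary veins carry heart muscle. Skeletal muscle genes summed to 2973 to 5119 in lungs and squamous epithelium genes to 380.1 to 483. Pancreas and gut genes summed to at most 76.6 in livers. Red cell genes were higher in lung in 6 of 7 cases by both scalings, and their sum, in deposited CPM on each table's own scale over 8 and 9 genes, ran from 255 to 325 in livers and 2507 to 12835 in lungs, the highest in replicate 5. The part of these tissues and of blood in the other lung values was not tested.

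Genes that every cell uses changed their call with the scaling. Of 77 ribosomal protein genes 52 were higher in lung by sum scaling and 3 by TMM, where 2 were higher in liver. Their median change was -1.15 and -0.21, beside all-gene medians of -0.88 and 0.02, and without lung air replicate 5 the count by sum scaling was 41. Of 37 proteasome genes 4 were higher in lung by sum scaling and 12 higher in liver by TMM, so no direction is given for either group.

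**Figure D4:**
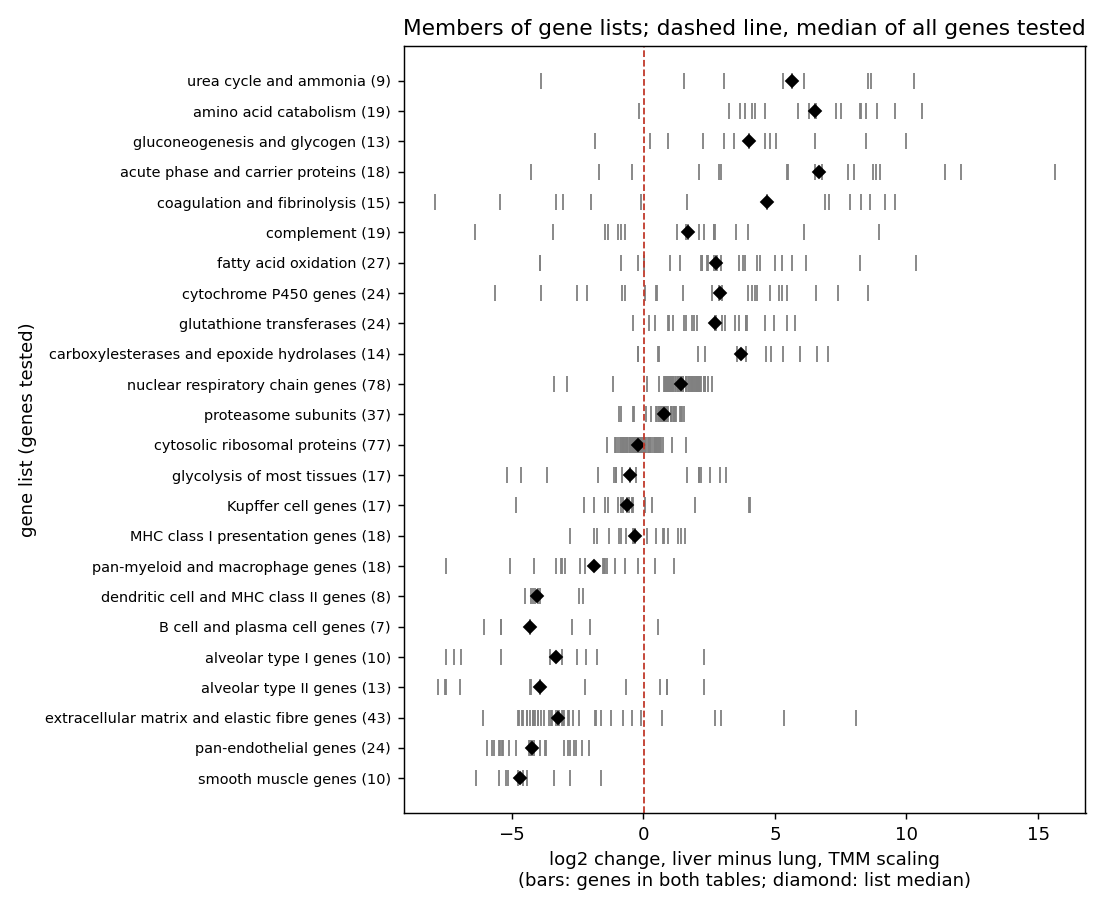
Members of 24 gene lists (y axis, with the number tested) by their log2 change, liver minus lung, under TMM scaling (x axis): bars are genes in both tables, diamonds are list medians and the dashed line is the median of all genes tested. Medians run from 6.66 in acute phase and carrier proteins to -4.67 in smooth muscle genes, with ribosomal proteins at -0.21.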

How the data were processed

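The authors deposited 1 table per organ, headed CPM, which is treated here as signal: 100% of values came out as a whole number of reads times a per-library step (tolerance 0.01). Per the submitters' processing notes, fastp 0.20.0, STAR and edgeR 3.10 were used with GRCm38. Their filter on low genes is not given in the sources used here. Libraries were rescaled to their sum over genes in both tables, since the tables were scaled separately, and tested only after that; sums over list members are in deposited CPM, on each table's own scale. A gene needed 1 CPM over shared genes in 5 libraries to be tested, which was done with limma 3.58.1 (trend) in R 4.3.3 on log2(value + 1), with Benjamini-Hochberg adjustment. The design assumed deposited CPM, and log2 values and the count tests on recovered reads (edgeR 4.0.16, DESeq2 1.42.0) were computed here. Tables were joined in Python 3.11.15 with pandas 2.3.3, and permutation tests used scipy 1.17.1. The 11 benzene libraries served only as a check.

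Members and gene lists were chosen with earlier results of these data known. Genes named are the 12 highest and lowest changes with a mean of at least 50, up to 3 called members per list and direction with a mean of at least 5, up to 2 uncalled members, all benzene-handling genes and the 10 highest genes per organ and per single table. Aldh2, Cldn3, Col4a1, Cyp4f16, family leaders and other genes of 1 table were added after their values were seen. Gene positions are GENCODE's for GRCm38. On data simulated around the same mean profile for both organs, 52% of 2-fold and 96% of 4-fold changes were called (50 genes each). Unchanged genes there had a median change of 0.005, where the median over all real genes was -0.88. The simulation therefore does not cover calls that depend on the scaling. Some genes and 1 motif are not reported here.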

Additional observations from a re-analysis of the deposited data

Results flagged for a closer look

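A library was set apart where the gap between it and the nearest other library of its organ exceeded Dixon's critical share of the range, which chance exceeds in about 1 of 20 groups of libraries. Over 362 groups (a named gene in an organ), and the read shares, 99 passed: 70 by lung air replicate 5, 26 by liver air replicate 1 and 1 each by the 3 libraries named last. Levels are CPM over shared genes, or deposited CPM where a gene is in 1 table only.

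Lung air replicate 5 held 0.636% of its shared-gene reads in mitochondrially encoded genes, where the other lungs held 1.64 to 2.16%. It was the lowest lung in most of the genes concerned, with Abcb4 at 0, Acaa1b at 3.02, Ackr4 at 5.46, Acvrl1 at 335, Apoe at 945, Aqp1 at 285, Ass1 at 19.2 and Bmp6 at 46.9. It also gave the lowest lung value for C3 at 465, Cav1 at 753, Ces1d at 655, Clic5 at 302, Col18a1 at 18.1, Col4a1 at 234, Cyp2a5 at 129.8 and Cyp2b10 at 257. Further low values in that library were Cyp2e1 at 65.3, Cyp2f2 at 906, Cyp4b1 at 366, Eno1 at 61.0, Ephx1 at 118, Fmo2 at 250.1, Fmo5 at 27.7 and Gapdh at 124. The same library was lowest for Gja1 at 23.7, Gstm1 at 367, Gsto1 at 98.6, Gstt1 at 19.96, H2-K1 at 982, Hc at 159, Hk1 at 19.5 and Hp at 1400.0. Below every other lung it further had Ighm at 336, Inmt at 2528, Ldhb at 193, Lyve1 at 25.7, Lyz2 at 2640.4, Papss1 at 23.7, Papss2 at 16.9 and Pck1 at 8.04. Low there as well were Pon2 at 110.4, Scd2 at 396, Sod3 at 167, Thbd at 474, Thy1 at 13.8, Tiparp at 18.5, Vwf at 319 and mt-Co1 at 517. The other lungs ran from 3519 to 4084 in Cyp2f2, from 1087 to 1286 in Fmo2 and from 614 to 696 in Gapdh. Replicate 5 was the highest lung in other genes, with C1qa at 321, Ces2e at 9.05, Cldn5 at 1907, Cox7a1 at 97.8, Cyp1a1 at 126, Gpihbp1 at 369 and Gpx1 at 808. High in it, too, were Gpx3 at 6109, Igfbp2 at 1343, Klf2 at 1352, Lpcat1 at 1012, Mgp at 5118, Mgst3 at 198 and Ndufa4l2 at 102. Among genes in the lung table only it was highest for Ager at 4359, Hoxa5 at 89.2, Scgb1a1 at 103021, Scgb3a2 at 6481, Sftpa1 at 5261 and Sftpc at 74185, and lowest for Bpifa1 at 989. These are deposited CPM, which summed to 1325410 in replicate 5 and to 971364 to 1010490 in the other lungs. Whether these genes stand apart in it on a common scale was not tested. What sets this library apart was not tested.

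Liver air replicate 1 was the lowest liver for Adh1 at 3230.2, Akr1a1 at 573, Apoa1 at 8582, Apoa2 at 6769, Ces2e at 322, Gapdh at 1815 and Gdf15 at 8.78. Lowest in it were also Gnmt at 2595, Gpx1 at 2994, Gstm1 at 3975, H2-K1 at 1867, Hamp at 965 and Hp at 3317. It was further below the other livers for Hpx at 4691, Igfbp2 at 1436, Inmt at 1294, Serpina1c at 6292, Serpinc1 at 2965 and Ttr at 7709. It was the highest liver for Cat at 2694, Cav1 at 3.60, Epcam at 4.28, Hnf4a at 505, Iigp1 at 234, Pigr at 1394 and Scd1 at 7762. The other livers ran from 6109 to 6338 in Scd1, the desaturase, and from 4268 to 4430.0 in Hp. Ahsg was highest in lung air replicate 2 at 4.14, against 1.64 to 2.23 in the other lungs. Ear2 was highest in liver air replicate 4 at 2.05, against 0.338 to 0.687 in the other livers. Pemt was lowest in lung air replicate 3 at 2.02, against 5.11 to 6.34 in the other lungs.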

How the results depend on the processing

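The counts of genes higher in liver and in lung, 1164 and 5303 by sum scaling, were 2485 and 2486 under TMM, 2497 and 2473 under median-ratio factors, 2515 and 2688 in edgeR and 2539 and 2652 in DESeq2 (both on recovered reads), and 2388 and 2591 under TMM without lung air replicate 5, an alternative chosen after seeing the data. Without the 50 highest genes per organ in the sum they were 1657 and 3827, and the adjusted p alone called 1859 and 7452. A minimum-change test (limma treat) gave 853 and 3785, the deposited scale 1096 and 5546, no filter 1164 and 5303, at least 1 in every library 1014 and 4744, a pseudocount of 0.1 1199 and 5500, all 22 libraries 1169 and 5315 and the benzene libraries 1141 and 5588. Leaving out each library in turn gave 1102 to 1179 and 5251 to 5551 genes, and differences of 14.8 to 15.2 percentage points in the share of the 10 highest genes and 3.02 to 3.33 in that of mitochondrially encoded genes. Of 167 named genes tested, 147 kept direction and call under TMM and 164 without lung air replicate 5. Several genes that were not called turned their sign (log2 change). Under TMM these were Adh7 0.510, Akr1a1 0.933, Aldh1a1 0.0925, Ces1d 0.581, Cldn3 0.769, Cyp2f2 0.0762, Fasn 0.904, Gsto1 0.219, Krt8 0.891 and Timd4 0.327. Under median-ratio factors these were Adh7 0.517, Akr1a1 0.939, Aldh1a1 0.0993, Ces1d 0.588, Cldn3 0.776, Cyp2f2 0.0830, Fasn 0.911, Gsto1 0.226, Krt8 0.898 and Timd4 0.332. Without the 50 highest genes these were Adh7 0.00454, Akr1a1 0.414, Ces1d 0.0620, Cldn3 0.254, Fasn 0.387 and Krt8 0.374. In edgeR these were Adh7 0.527, Akr1a1 0.934, Aldh1a1 0.0904, Ces1d 0.564, Cldn3 0.743, Fasn 0.894, Gsto1 0.145, Krt8 0.885 and Timd4 0.510. In DESeq2 these were Adh7 0.534, Akr1a1 0.942, Aldh1a1 0.0973, Ces1d 0.569, Cldn3 0.749, Fasn 0.900, Gsto1 0.151, Krt8 0.893 and Timd4 0.520. Under TMM without lung air replicate 5 these were Adh7 0.486, Akr1a1 0.923, Aldh1a1 0.0393, Ces1d 0.429, Cldn3 0.6003, Fasn 0.799, Krt8 0.909 and Timd4 0.368. In the benzene libraries these were Akr1a1 0.180, Krt8 0.281 and Timd4 0.567. With each library left out in turn Akr1a1 ran from -0.0517 (without liver air replicate 2) to 0.00848 (without liver air replicate 1). With each library left out in turn Fasn ran from -0.175 (without lung air replicate 5) to 0.0114 (without lung air replicate 3). The cause was not tested. Deviations of liver and lung libraries with the same replicate number correlated at -0.15 to 0.21, and those with different numbers at -0.35 to 0.37. Such correlations cannot show whether equal numbers mean the same animal. A replicate block gave 1180 and 5259 calls, and the same libraries without it 1178 and 5256, also added after seeing the data. Depth limits genes near 0, where 1 read weighs most. Fewer than 80% of called genes matched a RefSeq promoter, so a motif check over gene sets is void.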

Other observations

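A list of Wnt, BMP and FGF ligands also held Hamp, the iron hormone hepcidin, which is of none of these families. Of its 22 genes tested, 3 were higher in liver: Hamp (5.84), Gdf2, which encodes BMP9 (2.64), and Gdf15 (2.43). In lung 12 were higher (10 by both scalings), with Bmp6 (-4.51), Bmp4 (-4.44) and Wnt2 (-2.72). Both shares were near those over all genes by sum scaling. Gdf2 was at 12.5 ± 0.889 and 1.23 ± 0.636 CPM over shared genes in liver and lung, and Acvrl1, which binds BMP9, at 1.59 ± 0.588 and 665 ± 163. A further 22 ligands were in the lung table only.

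Fat cell genes were mixed: of 8 tested, 5 were higher in lung by both scalings, including the lipid droplet gene Cidec (-3.59), while Car3, a carbonic anhydrase also abundant in liver, was higher there (4.01). Among methyl, acetyl and glycine transferases 6 of 9 were higher in liver, such as Pemt, which makes phosphatidylcholine (6.63), and Inmt, an indole methyltransferase, was higher in lung (-1.04; TMM -0.07, not called), a call that was also lost without liver air replicate 1, at -0.998. Cofactor supply for sulfation differed by isoform, with Papss2 higher in liver (2.88) and Papss1 in lung (-1.91; TMM -0.97, not called).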
